A study of Danio rerio with 12 samples.

Results

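Whole zebrafish larvae raised in 3 ppb of the herbicide atrazine were compared with control larvae at 72 hours post-fertilization (hpf). The comparison set 3 pools labelled 3 ppb against 3 labelled 0 ppb, 6 of the study's 12 pools. Each pool was 1 array made from 50 larvae. All pools were wild-type AB fish with no introduced allele, kept at their dose from about 1 hpf until collection. Controls received 0 ppb, and whether a carrier solvent was used is not given in the sources used here. The other 6 pools had 0.3 or 30 ppb over the same period. All 12 pools entered the fit and shared 1 estimate of the spread between pools, on which every standard error, interval and p rests. Levels at 0.3 or 30 ppb are set beside those at 3 ppb or in controls only where these doses are named.

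Atrazine blocks photosynthesis in plants and is studied in vertebrates for its effects on the hormonal axis that runs from the hypothalamus through the pituitary to the gonads. In that axis hypothalamic peptides act on the pituitary, whose hormones, among them luteinizing hormone, act on the gonads. Other neurons of the hypothalamus make vasopressin and hypocretin, which serve water balance and wakefulness. In fish the pituitary also makes somatolactins, relatives of growth hormone and prolactin. A larva of this age has a beating heart and pituitary hormone cells, but no mature gonad.

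Each pool was read on a single-colour oligonucleotide array of 385000 features. Features were averaged per gene symbol, or per target ID where no symbol was found, into 37144 units. Of these, 2458 were genes with a usable symbol, and nearly all results with a name concern them. Values are log2 intensities, and a change is the fitted log2 difference, 3 ppb minus 0 ppb, with its standard error (SE), so that 1 means a 2-fold difference. Intensity depends on each probe, so changes were taken between pools of the same unit, and a unit's rank of brightness among all units describes its probes' signal, not the amount of its RNA. Bright signals were read for the lens genes crygn2, crybb1 and mipa, above at least 93.8% of units, and the globin hbae3, above 99.7% of units. Other markers were dimmer, and the red blood cell genes hbbe3 and ba1l lay above 34.1% and 16.2% of units. Markers of heart, bone and pituitary lay above 13.1% to 35.4% of units. Those of exocrine pancreas and hypothalamus lay above 18.4% to 80.1%, and those of muscle and pigment cells above 70.8% to 97.3%. None of the markers listed as defining for photoreceptors (opsins, transducins and others), liver, hatching gland and neurons was found under a symbol, and they are not analysed here.

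No transcript passed the threshold. limma called 0 of 37144 units (0%) at an adjusted p under 0.05, and the smallest adjusted p was 0.157. The count was 3 with features summarised by their median, 12 with the position gradient of each array as covariate and 1193 with array quality weights, whose estimation did not converge fully. That gradient is the slope of intensity over the number ending each feature's ID, which was assumed to be the probe's position within its target. Before adjustment, 1123 units had a p under 0.05 (3.02%), with 800 higher at 3 ppb (2.15%) and 323 lower (0.87%). If no unit differed, 1857 would be expected under this p, so the count was below that number. Among genes with a usable symbol the same criterion took 49 of 2458 (1.99%), of which 36 were higher (1.46%) and 13 lower (0.529%). The count of higher units was 517 without 3 ppb pool 1, 465 without control pool 2 and 1270 without 3 ppb pool 2. The count of lower units was 871 without 3 ppb pool 1, 486 without 3 ppb pool 2, 155 without control pool 2 and 80 without 3 ppb pool 3. For the median unit the SE was 0.179 and the 95% interval reached 0.39 to either side, which is a 1.31-fold difference. Fewer expressing cells and less RNA per cell cannot be told apart in whole larvae.

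**Figure D1:**
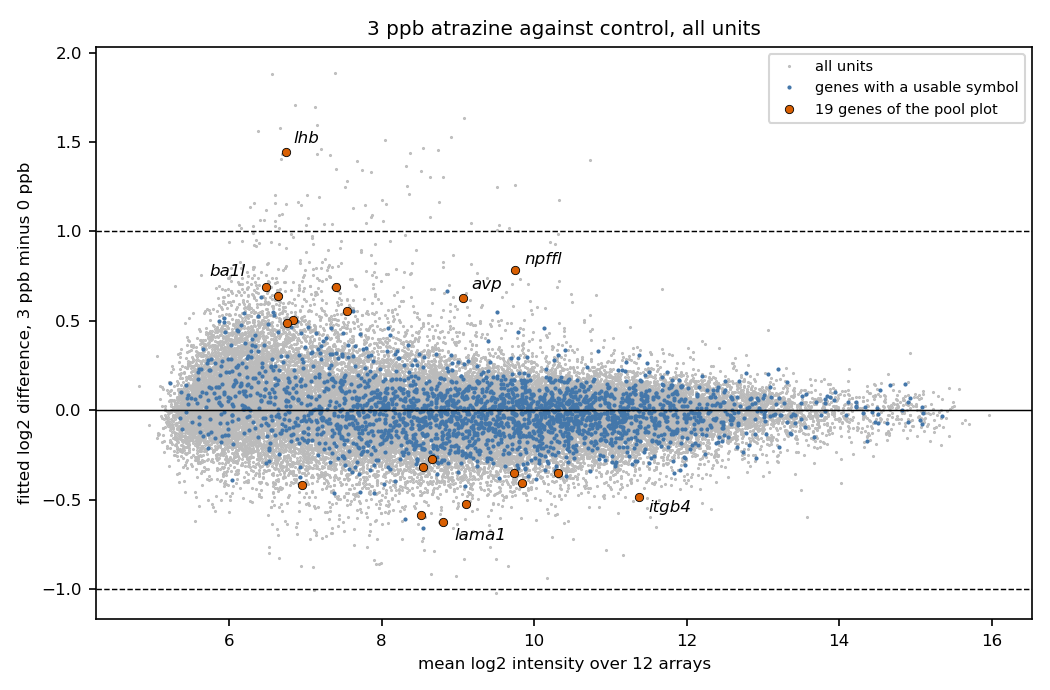
Fitted log2 difference (3 ppb minus 0 ppb, vertical axis) against mean log2 intensity over 12 arrays (horizontal axis) for all 37144 units in grey, genes with a usable symbol in blue and the 19 genes described by pool in orange. Dashed lines mark 2-fold. Among genes with a usable symbol only lhb lies above the upper line, and none lies below the lower one.

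Hormone genes held the largest difference of any named gene. The gene lhb encodes the beta subunit of luteinizing hormone, the pituitary hormone that drives steroid production in the gonads. Its log2 intensity was 6.0, 5.91 and 5.93 in the control pools and 8.17, 6.92 and 7.06 in the 3 ppb pools. Every treated pool lay above every control pool, and 3 ppb pool 1 stood well above the other two. The fitted change was 1.44 (SE 0.26, limma adjusted p = 0.244), or 2.72-fold with a 95% interval of 0.87 to 2.01 on the log2 scale. Of its 11 features, 10 were higher. Without 3 ppb pool 1 the change was 1.05 (limma adjusted p = 0.512).

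The vasopressin gene avp, whose product regulates water balance and social behaviour in fish, read 8.65, 8.61 and 8.96 in controls and 9.52, 9.16 and 9.42 at 3 ppb. The groups did not overlap, and control pool 3 came closest to the treated pools. The change was 0.63 (SE 0.16, limma adjusted p = 0.747), and 11 of 12 features were higher. The somatolactin alpha gene smtla, a pituitary hormone gene linked to body colour and background adaptation in fish, read 6.59, 6.52 and 6.52 in controls and 6.87, 7.07 and 7.20 at 3 ppb. The control pools were nearly equal and all treated pools lay above them. Its change was 0.51 (SE 0.15, limma adjusted p = 1), and 8 of 12 features were higher.

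The second somatolactin gene, smtlb, read 6.35, 5.89 and 6.17 in controls and 6.82, 6.10 and 6.48 at 3 ppb. Here the groups overlapped, since the lowest treated pool lay below the highest control pools, and the change was 0.33 (SE 0.19). The hypocretin gene hcrt, which marks wake-promoting neurons, read 6.39, 6.30 and 6.94 in controls and 7.11, 6.51 and 6.67 at 3 ppb, an overlapping spread with a change of 0.22 (SE 0.22). For both genes the value without 3 ppb pool 1 was smaller, at 0.15 for smtlb and 0.05 for hcrt.

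The remaining members of the hormone list differed least. The change was 0.11 (SE 0.20) for adcyap1a, which encodes the neuropeptide PACAP, and 0.08 (SE 0.19) for ghrh, the growth hormone-releasing hormone gene. Thyrotropin-releasing hormone, encoded by trh, read 7.90, 7.95 and 8.41 in controls and 7.82, 8.23 and 8.21 at 3 ppb, with a change of 0.00 (95% interval -0.58 to 0.58). All 3 genes had overlapping groups.

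Taken as a list of 8 measured genes, the hypothalamic and pituitary hormones had 8 positive changes and a median of 0.28. Over all units 47.2% of changes were positive, with a median of -0.01. Of the 8 genes, 3 had an unadjusted p under 0.05 and higher levels with no overlap between groups, against 1.53% of all units. The list was dim, with a median level of 6.79 against 8.99 over all units. Of the 9286 dimmest units, 61% were positive and 508 were higher with an unadjusted p under 0.05. The list's members were chosen with earlier results of these data known. The list had 6 positive changes without control pool 2. It had 7 without control pool 1, without 3 ppb pool 2 or 3, with array weights or with the position gradient. Without units below a log2 level of 7.18, 3 members were left, with a median of 0.106. The list's median deviation from the control mean was 0.45, 0.15 and 0.24 in the 3 ppb pools and 0.04, -0.14 and 0.11 in the control pools. Each 3 ppb pool therefore lay above each control pool, the lowest by a small margin. The 0.3 ppb pools, at 0.13, 0.18 and 0.21, also lay above all controls. At 30 ppb the values were 0.46, 0.14 and 0.05, and the lowest fell among the controls. Of 9 listed pituitary markers, 3 were measured (lhb, smtla and smtlb). Their summed level was 7.72 to 7.92 in controls and 8.34 to 9.02 at 3 ppb, and that of 3 of 6 hypothalamic markers (avp, hcrt and trh) was 9.48 to 9.91 and 9.91 to 10.1. These markers are themselves members of the list, so they give no separate measure of how much of either tissue the pools held.

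**Figure D2:**
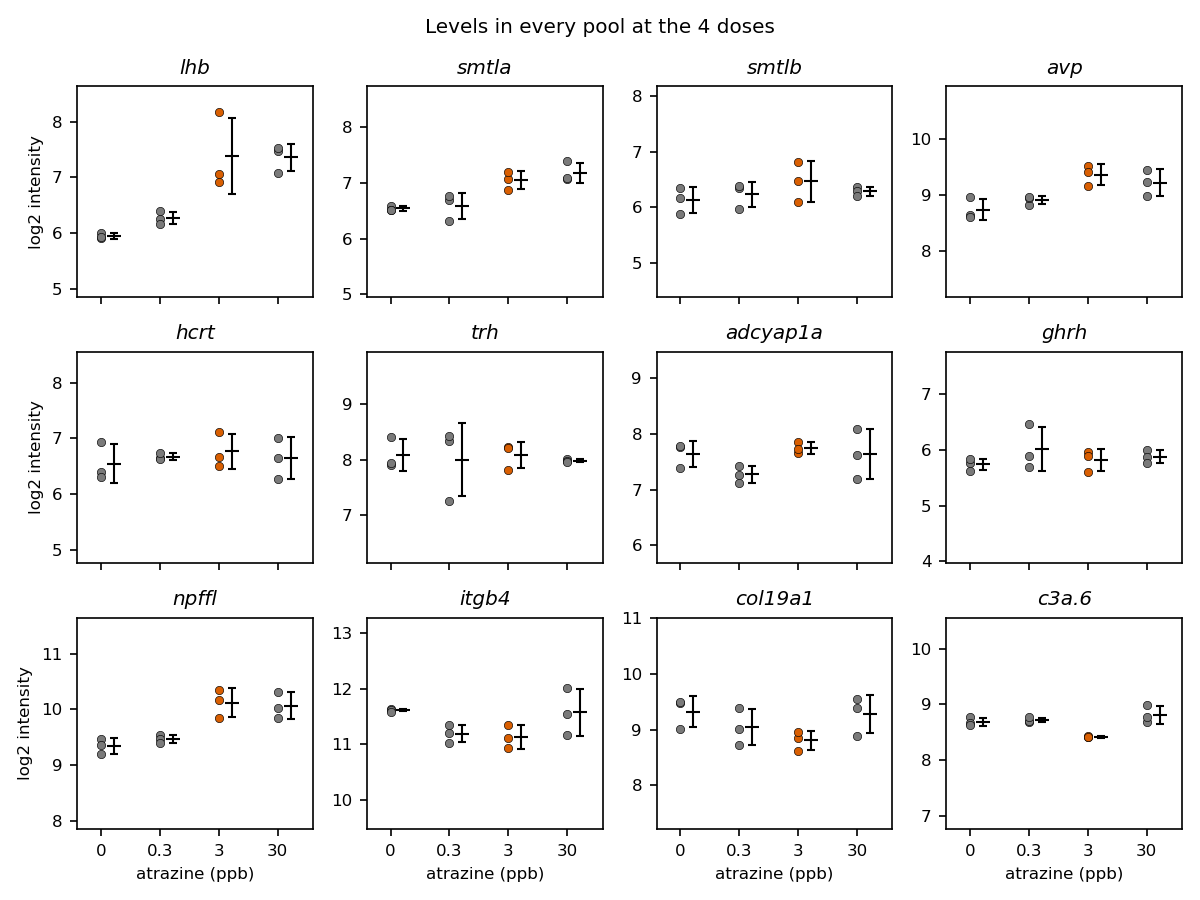
Log2 intensity of the 8 hormone-list genes, npffl and 3 genes that were lower at 3 ppb than at 0 ppb, for every pool (points) at 0, 0.3, 3 and 30 ppb atrazine, with the mean and SD over 3 pools beside them and the 3 ppb pools in orange. The vertical axes cover different ranges. For lhb the 3 ppb and 30 ppb pools lie above all pools of the lower doses, and for c3a.6 the 3 ppb pools lie below all others.

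Next to the hormones stood a neuropeptide gene. The gene npffl encodes a neuropeptide FF-like precursor of the RFamide family, peptides that act in the brain on feeding, pain and reproduction. It read 9.47, 9.19 and 9.36 in controls and 10.35, 9.85 and 10.17 at 3 ppb. All treated pools lay clear above all controls, the change was 0.79 (SE 0.16, limma adjusted p = 0.372), and all 12 features were higher. Its signal was brighter than that of 62.4% of units. Among 16 measured neuropeptides, peptide hormones and their receptors, 12 had positive changes, with a median of 0.09. npffl was the 1 member of 16 with an unadjusted p under 0.05 in limma, a criterion on which 2.15% of all units were higher. The luteinizing hormone receptor gene lhcgr was the lowest member at -0.15 (SE 0.20).

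The beta globin gene ba1l read 5.94, 6.15 and 6.22 in controls and 6.97, 6.52 and 6.90 at 3 ppb, with no overlap. Its change was 0.69 (SE 0.17, limma adjusted p = 0.732), with 8 of 11 features higher. Globin genes have near-identical copies, so which copy its features read is uncertain. All 11 measured genes of globins and red blood cells had positive changes, with a median of 0.09 and a lowest value of 0.01 for epb41l3b, a membrane skeleton gene. The embryonic globin hbae3 was at 14.8 ± 0.15 (SD, n = 3) in controls and 14.95 ± 0.24 (SD, n = 3) at 3 ppb. This list was not apart pool by pool, with median deviations of -0.01, 0.11 and 0.18 at 3 ppb and -0.08, 0.04 and 0.04 in controls. Without control pool 1 or without 3 ppb pool 2 there were 7 positive changes among the 11.

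A cytokine gene and an epithelial gene followed. The gene il12a encodes a subunit of interleukin 12, a cytokine that activates T and natural killer cells in mammals. It read 7.18, 7.00 and 7.15 in controls and 8.32, 7.43 and 7.64 at 3 ppb. The treated pools lay above the controls, with 3 ppb pool 1 far above the rest, and the change was 0.69 (SE 0.20, limma adjusted p = 1) with all pools and 0.43 without that pool. The gene tmigd1, in mammals an immunoglobulin-domain adhesion protein of kidney and gut epithelium, read 6.27, 6.37 and 6.27 in controls and 7.24, 6.78 and 6.80 at 3 ppb. The groups did not overlap, with a change of 0.64 (SE 0.16, limma adjusted p = 0.732), but only 5 of its 9 features were higher. Here too 3 ppb pool 1 stood above the other treated pools, and the lowest change with a pool left out was 0.49.

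Next by p among the higher genes with no overlap were a receptor gene and a connexin gene. The muscarinic acetylcholine receptor gene chrm5a read 6.34, 6.38 and 6.54 in controls and 7.07, 6.68 and 6.98 at 3 ppb, a change of 0.49 (SE 0.15). The connexin gene gja9b, whose product forms gap junctions between cells, read 7.28, 7.15 and 7.40 in controls and 7.87, 7.55 and 8.08 at 3 ppb, a change of 0.56 (SE 0.19). In both genes the treated pools lay above all controls and 10 of 12 features were higher, with a limma adjusted p of 1.

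Of 31 gene lists, 9 kept the sign of their median change under each of the 16 alternatives and 22 did not. The 9 were hormones, neuropeptides, globins, DNA repair, developmental signalling, matrix, cadherins, the circadian clock and the alpha/beta hydrolases.

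Across all genes with a usable symbol, groups that did not overlap were found for 74 higher (3.01%) and 126 lower genes (5.13%), against 3.52% and 3.88% of all units. With an unadjusted p under 0.05 as well, there were 26 higher (1.06%) and 10 lower genes (0.407%), and the text describes 9 of the first 10 by p on the higher side and all 10 on the lower side. At least a 1.5-fold difference was found for 8 higher genes (0.325%) and 4 lower ones (0.163%), against 0.999% and 0.25% of all units.

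**Figure D3:**
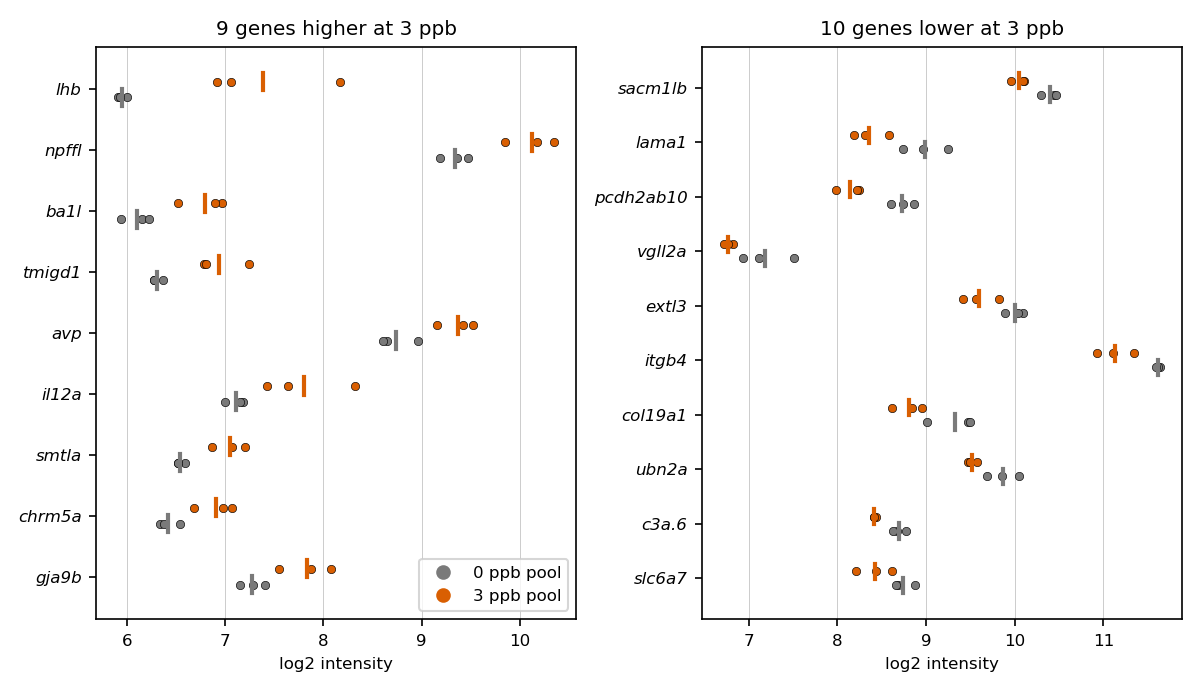
Log2 intensity (horizontal axis) in each of the 3 control pools (grey) and 3 pools at 3 ppb (orange) for 9 higher and 10 lower genes, with a bar at each group mean. Genes are ordered by unadjusted p from the top. In all 19 genes the groups do not overlap, and in lhb, il12a and tmigd1 1 treated pool stands above the other treated pools.

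The 10 lower genes that met both criteria included 3 of the extracellular matrix and its adhesion to cells. The gene lama1 encodes the laminin alpha 1 chain, a main component of embryonic basement membranes. It read 8.96, 9.25 and 8.74 in controls and 8.58, 8.19 and 8.31 at 3 ppb. No treated pool reached the lowest control, although the gap was small, and the change was -0.62 (SE 0.22, limma adjusted p = 1), a 1.54-fold lower level. All 12 features were lower.

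The gene itgb4 encodes the integrin beta 4 chain, which anchors epithelial cells to laminin through hemidesmosomes. It read 11.64, 11.62 and 11.59 in controls and 10.93, 11.35 and 11.11 at 3 ppb. The control pools were nearly equal, all treated pools were below them, and the change was -0.49 (SE 0.19, limma adjusted p = 1). The collagen gene col19a1, expressed by muscle in zebrafish, read 9.01, 9.47 and 9.49 in controls and 8.84, 8.95 and 8.62 at 3 ppb. Its highest treated pool was just below the lowest control, and the change was -0.53 (SE 0.21). In both genes all 12 features were lower.

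In the list of extracellular matrix and matrix adhesion, 8 of 25 measured members had positive changes and 17 negative ones, with a median of -0.11, against 45.9% positive among genes with a usable symbol. The 4 members with an unadjusted p under 0.05 were all lower, against 0.529% of such genes and 0.87% of all units that were lower on this criterion. They were lama1, itgb4, col19a1 and the fibrillar collagen gene col27a1b, named after its values were seen, at -0.46 (SE 0.19) with overlapping groups. The highest member was the osteocalcin gene bglap, a bone matrix gene, at 0.24 (SE 0.18). Median deviations of the list were -0.16, -0.07 and -0.17 at 3 ppb and -0.03, 0.06 and 0.00 in controls, so that all treated pools lay below all controls. The list's median level was 9.11, and of all units with a level of 8.99 to 10.5, 40.3% had positive changes. The exostosin-like gene extl3, whose product builds heparan sulfate chains of the matrix, was not a list member. It read 9.89, 10.09 and 10.04 in controls and 9.42, 9.82 and 9.56 at 3 ppb, a change of -0.41 (SE 0.15, limma adjusted p = 1) with 11 of 12 features lower.

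Cell-cell adhesion genes of the cadherin superfamily were mostly on the lower side. Clustered protocadherins are surface proteins that give neurons individual identities. Of 34 measured cadherins and protocadherins, 4 had positive and 30 negative changes, with a median of -0.15, against 45.9% positive among genes with a usable symbol. The lowest was pcdh2ab10, which read 8.60, 8.86 and 8.74 in controls and 7.98, 8.24 and 8.22 at 3 ppb, with no overlap. Its change was -0.59 (SE 0.21, limma adjusted p = 1), and all 12 features were lower. It was the 1 member of 34 with an unadjusted p under 0.05 in limma, a criterion on which 0.87% of all units were lower. The highest was pcdh1g1 at 0.25 (SE 0.18). The list's median level was 8.29, and of all units with a level of 7.18 to 8.99, 43.8% had positive changes.

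Protocadherin genes of 1 cluster share near-identical sequence, so the members are not independent and their features may read several copies. Median deviations of the list were -0.24, -0.20 and -0.06 at 3 ppb and -0.09, 0.02 and 0.06 in controls, so the groups overlapped in 1 pool on each side. At 0.3 ppb these pool medians were -0.12, 0.00 and 0.30, and at 30 ppb -0.37, -0.16 and 0.29, so pools of the same dose differed widely. The list median was -0.05 with array quality weights.

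The rest of the 10 lower genes had varied functions. The phosphoinositide phosphatase gene sacm1lb, which acts at the endoplasmic reticulum and Golgi, read 10.30, 10.44 and 10.46 in controls and 9.96, 10.10 and 10.09 at 3 ppb. All treated pools were below all controls, the change was -0.35 (SE 0.12, limma adjusted p = 1), and 11 of 12 features were lower. The muscle transcription cofactor gene vgll2a read 6.93, 7.12 and 7.51 in controls and 6.82, 6.76 and 6.72 at 3 ppb, a change of -0.42 (SE 0.15). Its controls spread more widely than its treated pools, and without control pool 3 the change was -0.26. Of 9 listed skeletal muscle markers, 2 were measured, mybpc1 and mybpc2b. Their summed level was 12.44 to 12.74 in controls and 12.12 to 12.42 at 3 ppb. Their changes were -0.07 (SE 0.14) for mybpc1 and -0.31 (SE 0.24) for mybpc2b. In the list of 28 striated muscle genes, 12 changes were positive and 16 negative, with a median of -0.02. The list's pool medians overlapped, at -0.14, 0.11 and 0.00 at 3 ppb and 0.03, 0.00 and -0.05 in controls. The part of muscle content in vgll2a was not tested.

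The ubinuclein gene ubn2a, whose product belongs to a histone chaperone complex, read 9.69, 9.86 and 10.05 in controls and 9.47, 9.50 and 9.57 at 3 ppb, a change of -0.35 (SE 0.14). The complement gene c3a.6, of innate immunity, read 8.77, 8.67 and 8.63 in controls and 8.41, 8.43 and 8.41 at 3 ppb, a change of -0.27 (SE 0.12). The proline transporter gene slc6a7, found at brain synapses in mammals, read 8.68, 8.88 and 8.66 in controls and 8.21, 8.62 and 8.44 at 3 ppb, a change of -0.32 (SE 0.15). In all 3 genes the treated pools lay below the controls, each with a limma adjusted p of 1. Complement C3 has several similar copies, and 4 of the 12 features of c3a.6 were higher rather than lower.

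The largest negative changes of any named gene included a pair whose size rested on 1 pool. The gene fam169aa read 8.72, 9.07 and 8.79 in controls and 8.52, 8.57 and 7.51 at 3 ppb. Its change was -0.66 (SE 0.32, limma adjusted p = 1) and was -0.32 without 3 ppb pool 3. The gene csf1ra, the receptor for colony-stimulating factor 1 that macrophages and yellow pigment cells need in zebrafish, read 9.31, 8.44 and 8.20 in controls and 8.16, 7.77 and 8.19 at 3 ppb. Its change was -0.61 (SE 0.29, limma adjusted p = 1) and was -0.28 without control pool 1.

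Of 54 measured genes of cytokines and innate immunity, 34 had positive and 20 negative changes, with a median of 0.07, between csf1ra as the lowest and il12a as the highest. Over all units 47.2% of changes were positive, and among the 9286 dimmest 61%. This list was dim, with a median level of 7.17 against 8.99 over all units. Its 3 members with an unadjusted p under 0.05 were all higher. They were il12a and, named after their values were seen, the interleukin gene il19l at 0.52 and the interferon regulatory factor gene irf10 at 0.43. On this criterion 2.15% of all units were higher, and 508 of the 9286 dimmest. The complement gene c3a.6, which was lower on the same criterion, was not a member of this list. The list's pool medians were 0.16, -0.03 and 0.02 at 3 ppb and -0.02, -0.09 and 0.09 in controls, which overlapped. Its balance turned with the processing: there were 26 positive and 28 negative changes without 3 ppb pool 1, 27 and 27 without control pool 2, 23 and 31 with the median of features and 12 and 15 without dim units.

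Chemosensory receptors and orphan G-protein-coupled receptors, which include odorant and taste receptors, had 27 positive and 5 negative changes among 32 measured genes, with a median of 0.16, against 47.2% positive over all units and 61% among the 9286 dimmest. The highest was the olfactory receptor gene ora2, which read 7.59, 6.95 and 7.59 in controls and 8.12, 7.61 and 8.05 at 3 ppb, a change of 0.55 (SE 0.21). Its groups did not overlap, but 3 ppb pool 2 was barely above control pools 1 and 3. Also with an unadjusted p under 0.05 were the odorant receptor genes or95a1 (0.55) and or41a2 (0.50) and the taste receptor gene tas2r200.1 (0.47). All 3 were named after their values were seen. This makes 4 of 32 members higher on this criterion, against 2.15% of all units and 508 of the 9286 dimmest. The lowest member was adgrv1, an adhesion receptor gene of hair cells and photoreceptors, at -0.28 (SE 0.22).

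This receptor list was dim, with a median level of 5.98 against 8.99 over all units. Its pool medians were 0.46, -0.06 and 0.14 at 3 ppb and 0.05, -0.11 and 0.09 in controls. The 9286 dimmest units had 0.23, -0.05 and -0.01 at 3 ppb and -0.02, -0.10 and 0.11 in controls, with the same pool highest and the same pool lowest at 3 ppb. Without 3 ppb pool 1 the list had 20 positive changes and a median of 0.03, and without units below a log2 level of 7.18 there were 7 members left with a median of -0.03. The part of array brightness in this list was not tested.

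No estrogen, androgen, progesterone or glucocorticoid receptor gene was among the measured members of the lists. The list of steroid synthesis and xenobiotic metabolism had 45 measured genes, mostly cytochrome P450, sulfotransferase and glucuronosyltransferase genes. Of these, 18 had positive and 27 negative changes, with a median of -0.03. None had an unadjusted p under 0.05, a criterion that only 1.99% of genes with a usable symbol met. The extremes were the cytochrome P450 genes cyp4v2a at 0.32 (SE 0.37) and cyp3c4 at -0.27 (SE 0.14). Among 11 nuclear receptors and their partners, 4 were positive and 7 negative. The retinoic acid receptor gene rargb was the lowest at -0.33 (SE 0.21), with groups that did not overlap, and nr4a2b, a receptor of dopamine neurons, the highest at 0.20 (SE 0.14). Of 10 reproduction and germ cell genes, 7 were positive with a median of 0.05 (4 without control pool 2, with a median of -0.003), from spata2 at -0.05 (SE 0.16) to the egg envelope gene zp2.2 at 0.32 (SE 0.21).

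Genes of cell division, DNA repair and cancer had no member with an unadjusted p under 0.05, a criterion that only 1.99% of genes with a usable symbol met. Of 18 cell cycle and DNA replication genes, 9 were positive and 9 negative, from cdk10 at -0.18 (SE 0.15) to cdk4 at 0.25 (SE 0.26), both kinases of the cyclin-dependent family. Of 23 genes of DNA repair, apoptosis and cancer, 7 were positive and 16 negative, with a median of -0.06. The hepatocyte growth factor receptor gene met was the lowest and read 9.19, 9.36 and 9.48 in controls and 9.24, 8.98 and 8.86 at 3 ppb. Its groups overlapped in 1 pool on each side, with a change of -0.31 (SE 0.15, limma adjusted p = 1), and the caspase gene casp8l1 was the highest at 0.14 (SE 0.20).

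For monoamine, acetylcholine, glutamate and GABA signalling, 19 of 36 genes were positive, from the glutamate receptor gene gria3b at -0.35 (SE 0.30) to chrm5a. For synaptic vesicle and synapse organisation, 7 of 16 were positive, from the scaffold gene homer2 at -0.24 (SE 0.20) to cbln2b, a synapse organiser, at 0.17 (SE 0.13). Ion channels had 17 of 33 positive, from the acid-sensing channel gene asic1c at -0.37 (SE 0.22) to the potassium channel gene kcnk6 at 0.31 (SE 0.18). Of 67 solute carriers, which serve many tissues, 22 were positive and 45 negative with a median of -0.06, and 36 were positive with the median of features. They ranged from slc6a7 to the organic anion transporter gene slco1f4 at 0.36 (SE 0.31).

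**Figure D4:**
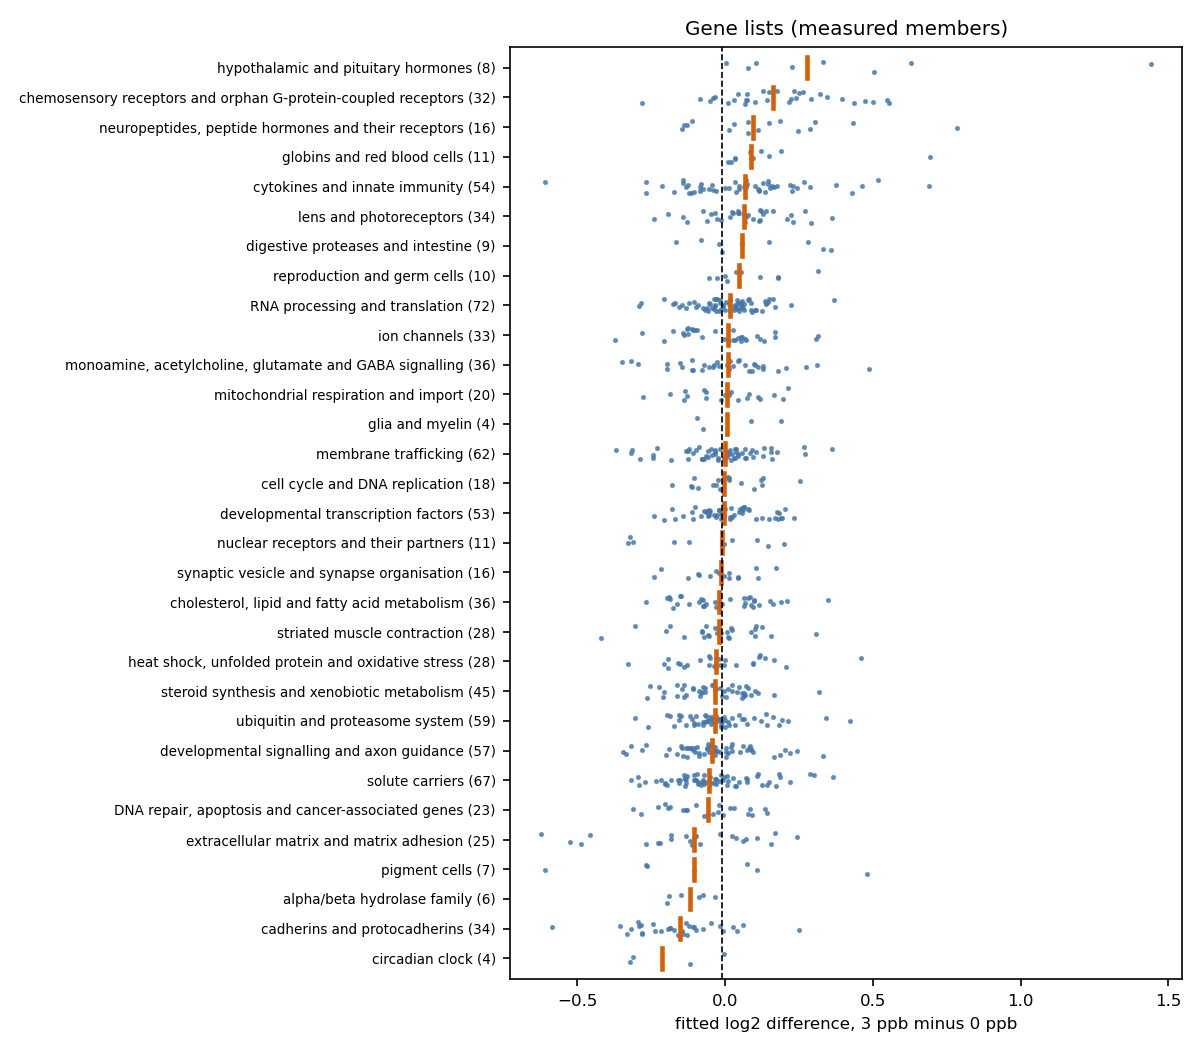
Fitted log2 difference (3 ppb minus 0 ppb) of each measured gene (blue points) in 31 gene lists, with the list median as an orange bar and the median of all units as a dashed line, ordered by list median. Numbers in brackets are measured genes. The hormone list has the highest median at 0.28, and the circadian clock list, with 4 genes, the lowest at -0.22.

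Of 4 measured circadian clock genes, 4 had negative changes (3 after cyclic loess, with arrays centred on their medians, with array weights, with the position gradient, and without 3 ppb pool 2 or control pool 3), with a median of -0.22. The period gene per3, part of the feedback loop of the clock, read 9.86, 10.25 and 9.91 in controls and 9.80, 9.59 and 9.66 at 3 ppb, a change of -0.32 (SE 0.21). The receptor gene rorca, which regulates clock transcription in mammals, read 9.64, 9.76 and 9.98 in controls and 9.36, 9.61 and 9.46 at 3 ppb, a change of -0.31 (SE 0.15). In both genes, named after their values were seen, the groups did not overlap, by a small margin, and neither had an unadjusted p under 0.05. The hour of collection of each pool is not given in the sources used here. The alpha/beta hydrolase family, a family of lipases and related enzymes, had 6 negative changes among 6 genes (5 with arrays centred on their medians, with the median of features, and without control pool 1, 3 ppb pool 1 or control pool 2), with a median of -0.12, from abhd13 at -0.20 (SE 0.13) to abhd18 at -0.04 (SE 0.16).

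In the eye, 24 of 34 lens and photoreceptor genes had positive changes, with a median of 0.07. The photoreceptor calcium sensor gene guca1ab.1 was the highest and read 6.03, 6.06 and 6.26 in controls and 6.51, 6.45 and 6.47 at 3 ppb, a change of 0.36 (SE 0.13). All its treated pools lay above all controls, while its relative guca1g was the lowest at -0.24 (SE 0.29). The list's pool medians were -0.23, 0.21 and 0.20 at 3 ppb, with 1 pool opposite to the other two, and 0.05, 0.06 and -0.11 in controls. Its median was -0.03 without 3 ppb pool 2, -0.01 without 3 ppb pool 3 and 0.21 without 3 ppb pool 1. The 3 lens markers had summed levels of 15.59 to 15.82 in controls and 15.48 to 15.86 at 3 ppb.

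Pigment cell genes were split, with 3 of 7 positive, from csf1ra to the transcription factor gene mitfb at 0.48 (SE 0.24). Of 28 striated muscle genes, 12 were positive with a median of -0.02, from vgll2a to the troponin gene tnni4b.2 at 0.31 (SE 0.19). Of 9 genes of digestive proteases and intestine, 5 were positive, from the aminopeptidase gene anpepb.1 at -0.17 (SE 0.38) to the chymotrypsinogen gene ctrb.3 at 0.36 (SE 0.49). Among 4 glia and myelin genes, 2 were positive.

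Of 36 genes of cholesterol, lipid and fatty acid metabolism, 16 were positive with a median of -0.02. The highest was the sterol carrier gene stard4, which read 7.61, 7.76 and 7.41 in controls and 8.01, 7.94 and 7.88 at 3 ppb, with no overlap and a change of 0.35 (SE 0.13). The lowest was the phospholipase gene pnpla7a at -0.27 (SE 0.19). Of 28 heat shock, unfolded protein and oxidative stress genes, 9 were positive with a median of -0.03. The highest was the small heat shock gene hspb9l, which read 10.03, 10.05 and 9.81 in controls and 10.15, 10.45 and 10.67 at 3 ppb, a change of 0.46 (SE 0.21) and all 12 features higher. The transcription factor gene nfe2l3 was the lowest at -0.33 (SE 0.20). Of 20 genes of mitochondrial respiration and import, 10 were positive, from coq6 of ubiquinone synthesis at -0.28 (SE 0.22) to the complex I gene ndufa11 at 0.21 (SE 0.16).

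Housekeeping and developmental lists had medians between -0.05 and 0.02. Of 59 ubiquitin and proteasome genes, 19 were positive with a median of -0.04, from the deubiquitinase gene otud3 at -0.31 (SE 0.18) to trim35-36, of the tripartite motif family, at 0.42 (SE 0.19). Of 72 RNA processing and translation genes, 39 were positive, from the mediator gene med12 at -0.29 (SE 0.20) to the RNA-binding protein gene rbm46 at 0.37 (SE 0.26). Of 62 membrane trafficking genes, 31 were positive, from dnm2b, a dynamin of endocytosis, at -0.37 (SE 0.17) to trappc2l at 0.36 (SE 0.49), which was measured by only 3 features. Of 53 developmental transcription factors, 25 were positive, from foxk1 at -0.24 (SE 0.20) to tfap2e at 0.23 (SE 0.22). Of 57 developmental signalling and axon guidance genes, 21 were positive with a median of -0.05, from the Wnt ligand gene wnt3a at -0.34 (SE 0.24) to the procollagen protease gene bmp1b at 0.33 (SE 0.22).

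Differences of 2-fold or more were almost all in targets with no gene name here. At 3 ppb, 75 units were at least 2-fold higher than controls (0.202%) and 2 were at least 2-fold lower (0.00538%). Of the 75, lhb was the 1 gene with a usable symbol (0.0407% of such genes) and 74 were unnamed. Their median level was 6.60 in controls and 8.02 at 3 ppb, and 65 lay in the dimmer part of all units, below the overall median. Groups did not overlap in 57 of them, against 3.52% of all units that were higher without overlap. The units were chosen for this difference between the same pools, so their changes and their lack of overlap are a description. Median deviations were 1.58, 0.95 and 1.25 in the 3 treated pools, with 3 ppb pool 1 again the highest. Against the same controls, the median change of these units was 0.16 at 0.3 ppb and 1.22 at 30 ppb. Their median difference, 3 ppb minus 30 ppb, was 0.04, so the higher level was not particular to 3 ppb.

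The unnamed target with the smallest p was ENSDART00000106065, which read 7.10, 6.77 and 6.86 in controls and 8.51, 8.09 and 8.31 at 3 ppb. Its treated pools lay far above its controls, the change was 1.39 (SE 0.19, limma adjusted p = 0.157), and 11 of 12 features were higher. It was followed by OTTDART00000023474 with a change of 1.33 (SE 0.19, limma adjusted p = 0.157) and 9 of 10 features higher. On the lower side stood ZV700S00005704 at -0.87 (SE 0.21, limma adjusted p = 0.56) and OTTDART00000031054 at -1.01 (SE 0.24, limma adjusted p = 0.571), which had no overlap between groups and all 8 features lower.

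The same larvae were compared with the neighbouring doses, differences that do not use the control pools' levels. Against 0.3 ppb, 0 of 37144 units passed in limma. Before adjustment 1544 had a p under 0.05 (4.16%), 787 of them higher at 3 ppb (2.12%). For lhb the 0.3 ppb pools read 6.39, 6.26 and 6.17, below all 3 ppb pools, and the difference was 1.11 (SE 0.26, limma adjusted p = 0.905). For npffl it was 0.65, for tmigd1 0.62 and for avp 0.46. The genes chrm5a and itgb4 differed by 0.11 and -0.06, which is under their SE. sacm1lb read 10.70, 10.56 and 10.54 at 0.3 ppb, above all controls as well as all 3 ppb pools, and differed by -0.55 (limma adjusted p = 0.785).

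Against 30 ppb, 0 units passed in limma. Before adjustment 283 had a p under 0.05 (0.762%), 113 of them higher at 3 ppb (0.304%). The 30 ppb pools of lhb read 7.48, 7.52 and 7.08, within the range of the 3 ppb pools, and the difference was 0.03 (95% interval -0.54 to 0.60). Differences were 0.06 for npffl, -0.05 for tmigd1, 0.14 for avp and -0.13 for smtla, and in each gene the pools of both doses overlapped. The intervals leave room for differences in either direction. Among the lower genes, c3a.6 read 8.68, 8.99 and 8.77 at 30 ppb, above all 3 ppb pools, with a difference of -0.39 (limma adjusted p = 1). For itgb4, col19a1 and lama1 the differences from 30 ppb were -0.45, -0.48 and -0.43, and the pools of both doses overlapped in each gene.

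The arrays themselves differed more than the doses did. The largest axis of variation held 41.4% of the variance between the 12 arrays, and dose groups explained 4.4% of that axis. At 3 ppb the scores on it were -0.29, 0.18 and 0.07, and in controls 0.05, 0.17 and -0.15, so that 3 ppb pool 1 lay farthest out and the groups overlapped. The 9286 dimmest units had 61% positive changes and 508 of the 800 higher units with an unadjusted p under 0.05, whereas the 9286 brightest had 12 higher and 46 lower. lhb lay above 19.6% of units, ba1l above 16.2% and smtla above 20.9%. With 3 ppb pool 1 left out the changes of lhb, ba1l and smtla were 1.05, 0.61 and 0.59, and those of smtlb and hcrt 0.15 and 0.05. The hormone list then had 8 positive changes with a median of 0.144, against 0.278 with all pools. The part of array brightness in these results was not tested.

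**Figure D5:**
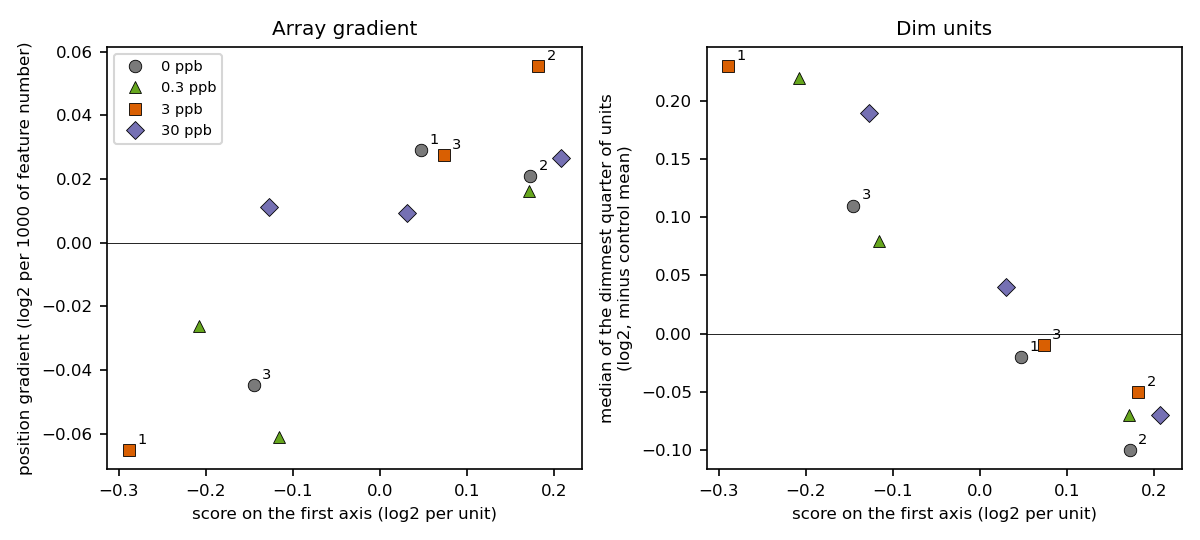
Position gradient (left, log2 slope over the number that ends each feature's ID) and median of the 9286 dimmest units minus the control mean (right, log2) against the score on the first axis of variation, for all 12 arrays, with pools of 0 and 3 ppb numbered. The 3 ppb pool 1 has the lowest score at -0.29 and the highest dim-unit median at 0.23, and the other two 3 ppb pools lie at positive scores with dim-unit medians of -0.05 and -0.01.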

How the data were processed

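The deposited series matrix held linear fluorescence intensities of 385000 features on 12 single-colour arrays, which the authors made with RMA per the submitters' processing notes. The labels and notes give neither an RMA version nor background values, slides or dates of scanning, and the fit therefore has no term for slide and no call of background. Intensities were taken to log2 and averaged over features with 1 symbol or target ID, a median of 12 per unit. Symbols came from the platform annotation and RefSeq accessions (30725 features named, 354275 unnamed), with the GRCz12tu gene table for names only. Sequences and genome coordinates were not used here. limma 3.58.1 in R 4.3.3 estimated the mean of each dose from all 12 arrays, with eBayes, and p-values were adjusted by Benjamini-Hochberg over 37144 units with a threshold of 0.05. The number of arrays limits precision. Whether the pools had different parents is not stated, so a p-value describes the spread of these pools, which may be technical. The fit was tested on simulated data of the same comparison, in which 200 of 37144 units were raised at 3 ppb by the same fold. It recovered 0% of 1.5-fold, 53% of 2-fold and 94.5% of 4-fold changes, with 0, 4 and 11 false calls. Recovery depends on the number of units changed, and the simulated spread of a unit was the same at every dose. The simulated noise was independent between units, whereas the real arrays shared an axis with 41.4% of the variance. Recovery in the real data may therefore differ.

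Genes were named where groups did not overlap and the unadjusted p was under 0.05 (up to 10 per direction, none past the threshold), as members of the hormone list, as the highest and lowest member of each list with 5 or more measured genes, as the 3 largest changes per direction, and as 2 unnamed targets per direction. A gene that this rule took is not reported here. The members and the 31 lists, written as symbol patterns, were chosen with earlier results of these data known. After values were seen, 16 symbols judged to match a pattern only by prefix, or to belong to another tissue, were taken out of the lists, which may still hold genes of other roles. The position gradient of an array is its slope of intensity, against the mean of arrays, over the number that ends each feature's ID, read as a position within the target, which no table states. As alternatives, features were summarised by their median, arrays were normalized in other ways or weighted, dim units were dropped, the prior was trended, the gradient or the replicate number entered the fit, and each pool was left out in turn. No gene list was tested as a set, and lists overlap in 32 genes.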

Additional observations from a re-analysis of the deposited data

Results flagged for a closer look

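The phosphoinositide phosphatase gene sacm1lb was picked out because its pools at neighbouring doses lay on opposite sides of the controls. Its 3 pools at 0.3 ppb (10.70, 10.56 and 10.54) lay above all 3 controls, and its 3 pools at 3 ppb lay below them. The fitted difference between 3 ppb and 0.3 ppb was -0.55 on the log2 scale, with a limma adjusted p of 0.785, so the difference between the doses did not pass over all units. At 30 ppb the pools read 10.10, 10.19 and 10.28, again below all controls.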

How the results depend on the processing

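In the fit reported, 0 units passed for 3 ppb against 0 ppb, and this stayed at 0 with only the 6 arrays of the comparison, median centring, quantile normalization, cyclic loess, the dim-unit filter, a trended prior, an adjusted p under 0.1 and each pool left out. With the median of features 3 were called, with the position gradient as covariate 12, and with array quality weights 1193 (605 higher, 588 lower). The weights did not converge fully and were 9.92 for 3 ppb pool 3 and 0.285 for 3 ppb pool 1. Units with an unadjusted p under 0.05 (1123) numbered 593 without dim units, where fewer units were tested, 8280 with weights and 2053 with the gradient, and 620 to 1756 with a pool left out. Higher units (800) numbered 314, 3795 and 1421 under these 3 settings and 465 to 1270 with a pool left out. Lower units (323) numbered 151 with median centring, 4485 with weights, 632 with the gradient and 80 to 871 with a pool left out. Median centring moved the share of higher among these units by over 10 percentage points, to 1004 higher and 151 lower, beside a shift of the median of all units from -0.01 to 0.03. The hormone list's median of 0.278 was 0.106 without dim units, which left 3 of its members, and 0.144 to 0.423 with a pool left out. Called units for the differences from other doses, added after the data had been seen, were 17 against 0.3 ppb and 2212 against 30 ppb with weights and 0 under the other settings run. The cause of these shifts was not tested.

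Whether the replicate numbers pair the pools is not given in the sources used here, and the reported fit does not pair them. Deviations from group means correlated at -0.103, 0.679 and -0.233 for same-numbered pools. For differently numbered pools they correlated at -0.632 to 0.586. With 3 pools per group these correlations cannot decide whether the pools were paired. The replicate block gave 0 calls and 1576 units with an unadjusted p under 0.05 (1130 higher, 446 lower), and it changed no other call.

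Of 1319 combinations of 84 named genes or targets with these settings, 1267 kept their direction and their side of the threshold and 28 passed it, mostly with array weights. With the gradient lhb passed at 1.47 (limma adjusted p = 0.0457), and over all alternatives its adjusted p lay between 0.00346 and 1. The other 24 turned sign, all in genes not called in either direction. With array weights they were ghrh at -0.11, lhcgr at 0.016 and cyp4v2a at -0.15. With the gradient they were trh at -0.00013 and epb41l3b at -0.0032, with the median of features spata2 at 0.12 and coq6 at 0.021, and with median centring abhd18 at 0.0052. With a pool left out the changes ran from -0.028 to 0.18 for adcyap1a, -0.09 to 0.16 for trh, -0.08 to 0.18 for epb41l3b, -0.06 to 0.62 for slco1f4 and -0.00076 to 0.61 for cyp4v2a. They ran from -0.32 to 0.09 for lhcgr, -0.13 to 0.041 for spata2, -0.07 to 0.31 for casp8l1, -0.35 to 0.08 for anpepb.1 and -0.09 to 0.07 for abhd18.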
